A study of Homo sapiens with 27 samples.

Results

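The respiratory chain genes of MDA-MB-231 cells, an invasive human breast cancer line, were followed after drugs that block either side of the O-GlcNAc cycle, in which cells attach a sugar to intracellular proteins with the enzyme OGT and take it off with OGA. Genes were taken by symbol: NDUFA, NDUFB, NDUFC, NDUFS and NDUFV (complex I), SDHA to SDHD (complex II), UQCR (complex III) and COX4 to COX8 (complex IV). Probe sets that name 1 gene gave 56 such genes, measured by 77 probe sets, among 11963 genes on 19064 probe sets. Of the 56 genes, 28 encode subunits of complex I, 3 of complex II, 6 of complex III and 13 of complex IV. Another 5 (NDUFAF1, NDUFAF3, NDUFAF4, NDUFAF5 and NDUFAF7) encode assembly factors of complex I, and NDUFB2-AS1 is an antisense RNA, both taken in by the spelling of their symbols. A further 7 probe sets that name such a gene together with others were left out. SDHB, UQCRFS1, NDUFA4, NDUFA4L2, COX4I2, COX6B2 and COX8C are among the genes not analysed here.

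Total RNA was hybridised to Affymetrix arrays, 1 per sample. Cells received the vehicle DMSO, the OGT inhibitor 5SGlcNAc (50 µM) or the OGA inhibitor Thiamet-G (25 µM), and the labels name no genetic change in any group. There were 3 arrays per treatment at 48 h and 1 array per treatment at 0, 2, 4, 6, 8 and 24 h, 27 in all. The title of the series concerns the antioxidant factor NRF2 (gene NFE2L2) and its inhibitor KEAP1. Values are log2 expression levels, on which a difference of 0.3 is a 1.23-fold change, and a gene was called where limma's adjusted p was under 0.05 over all 11963 genes.

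The respiratory chain sits in the inner mitochondrial membrane. Complex I takes electrons from NADH and complex II from succinate, both pass them to coenzyme Q, complex III hands them to cytochrome c, and complex IV gives them to oxygen, while complexes I, III and IV pump the protons that drive ATP synthase. All members measured here are nuclear genes, and their transcription is known to rest on nuclear respiratory factor 1 (NRF1), the ETS family factor GABP and YY1. GABP was once named nuclear respiratory factor 2, and it is a different protein from the NRF2 of the series title.

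The array medians were 7.68 to 7.76 at 48 h and 7.43 to 7.53 at 0 to 24 h, so each time set was analysed apart, except in an interaction test given near the end. At 48 h, 51 of the 56 genes lay above the 40th percentile of all genes; the dim ones were COX6A2 and COX7A1, which are the heart and muscle isoforms of their subunits, NDUFAF5, NDUFAF7 and NDUFB2-AS1. Of 6 genes that mark the mesenchymal line, VIM, AXL, CAV1, MSN and CD44 were at 13 to 15 and SPARC was dim at 5.12. Of 9 luminal genes, 4 were dim. The others were not: KRT18 was at 13.6, KRT8 at 12.5, KRT19 at 11.6, GATA3 at 9.65 and EPCAM at 9.54. The muscle list was dim in 4 of 4 genes, the haematopoietic list in 4 of 5 and the fibroblast list in 3 of 4. The 3' minus 5' signal of ACTB, which rises as RNA breaks down, was 0.15 to 0.39 at 48 h and 0.42 to 1.64 at 0 to 24 h. Every array of 0 to 24 h thus lay above every array of 48 h. The signal was highest, at 1.64 and 1.24, in the DMSO and Thiamet-G arrays of 4 h. Whether replicates came from separate cultures is not stated, and p-values then reflect only how far these arrays scatter, which could be technical in origin.

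The sequences before the start sites of members that differed between treatments at 48 h follow where they hold 1 of the 4 motifs searched, with the motif in capitals. They were read 5′ to 3′ on the gene's strand from RefSeq promoter windows of GRCh38.p14, and stop before the transcript starts. Motifs at or past the start are thus not shown. These are YY1 cores in NDUFA7 (from base 15) and NDUFA3 (from base 22), and overlapping NRF1 cores across the start of NDUFA8 (from base -4). NDUFAF4 also has an NRF1 core and UQCR11 an antioxidant response core, each from base 7. SDHD (chr11:112086755-112086810, plus strand) holds overlapping NRF1 cores and an ETS core, UQCR11 (chr19:1605545-1605587, minus strand) holds 2 ETS cores, NDUFAF4 (chr6:96898024-96898046, minus strand) holds 1 ETS core, and NDUFA3 (chr19:54102605-54102627, plus strand) holds an antioxidant response core. NDUFB4 (chr3:120596169-120596194, plus strand) holds overlapping NRF1 cores. NDUFS6 (chr5:1801353-1801406, plus strand) holds 1 NRF1 core and then an antioxidant response core. Both were called in no comparison of the main fit and are shown beside the others for these motifs. Between the inhibitors NDUFB4 was called without dim genes (limma adjusted p = 0.0359) and with trend and robust variance (limma adjusted p = 0.0107).
SDHD: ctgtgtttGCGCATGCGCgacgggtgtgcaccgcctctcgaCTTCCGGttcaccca
UQCR11: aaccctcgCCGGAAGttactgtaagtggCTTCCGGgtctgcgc
NDUFAF4: acctcccgCCGGAAGcggccctc
NDUFA3: aggtccGCAAAGTCAggcttgcg
NDUFB4: agcacttcGCGCATGCGCatatcacc
NDUFS6: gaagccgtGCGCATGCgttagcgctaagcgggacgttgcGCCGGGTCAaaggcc

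Over windows of 300 bases (250 before and 50 after the start), 51 of the 56 genes and 9562 of all genes tested had a sequence. Letters were searched on both strands: the NRF1 core GCGCATGC or its reverse complement GCATGCGC, the ETS core CCGGAAG, the YY1 core AAGATGGC and the antioxidant response core TGACNNNGC. The NRF1 core was present in 10 members (19.6%), against 4.44% of all windows. The ETS core was in 14 members (27.5%, against 15.2%) and the YY1 core in 7 (13.7%, against 4.76%), 6 of them in complex I. The antioxidant response core was in 9 members (17.6%, against 14.9%), 7 of them in complex I and 2 in complex III. At least 1 of the 4 motifs was found in 26 members. A match is a run of letters and not a measured site; the NRF1 cores in SDHD and NDUFB4 overlap each other, and the windows hold no match for NDUFAF1, NDUFB1 or NDUFA5.

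The question of 5SGlcNAc against DMSO at 48 h was whether less O-GlcNAc transfer moved the chain's transcripts. It left most of them close to DMSO: the median change of the 56 genes was -0.015 on the log2 scale, beside 0.01 over all genes. The assembly factors NDUFAF1 and NDUFAF4 rose, and the complex I subunits NDUFA7 and NDUFB1 fell. None of the 22 subunits of complexes II, III and IV passed the test. Of the 56 genes, 2 were called higher, where 2.92% of all genes were, and 2 lower, where 7.32% were, so 3.57% of the members were called in each direction. After quantile normalization or median centring 3 members were called higher and 1 lower, NDUFB1 being lost and NDUFA8 gained, while the all-gene shares turned to 4.3% and 6.25%, and to 6.3% and 4.62%.

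NDUFAF1 belongs to the machinery that builds the membrane arm of complex I. Its levels were 10.28, 10.32 and 10.36 with DMSO, 10.59, 10.54 and 10.59 with 5SGlcNAc, and 10.24, 10.36 and 10.26 with Thiamet-G. All 5SGlcNAc arrays lay above all others, and the groups of DMSO and Thiamet-G overlapped. The rise against DMSO was 0.25 (SE 0.0458, limma adjusted p = 0.00854), 1.19-fold, and this call held in each of the 14 alternative settings tried. Like NDUFAF4, NDUFA7, NDUFB1, NDUFA8, NDUFA3 and UQCR11 below, NDUFAF1 rests on 1 probe set, which does not end in _x_at. For these genes the mean of probe sets and the omission of probe sets ending in _x_at left the gene's own values unchanged.

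NDUFAF4 acts with NDUFAF3 early in assembly, on the part of complex I that passes electrons to coenzyme Q. Its levels were 10.84, 10.92 and 10.96 with DMSO, 11.23, 11.2 and 11.12 with 5SGlcNAc, and 10.9, 10.77 and 10.96 with Thiamet-G. The 5SGlcNAc arrays were again the highest, without overlap. The rise against DMSO was 0.28 (SE 0.0592, limma adjusted p = 0.0182). Leaving out DMSO replicate 1 or 2, or 5SGlcNAc replicate 1 or 2, ended this call, with adjusted p up to 0.0734. Its partner NDUFAF3 went the other way, by -0.18 (limma adjusted p = 0.0613, not called), with 9.69, 9.8 and 9.8 under DMSO and 9.66, 9.5 and 9.58 under 5SGlcNAc. The dim factors NDUFAF5 and NDUFAF7 differed by 0.03 and -0.07 and were not called.

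NDUFA7 is an accessory subunit of the matrix arm of complex I. Its levels were 10.1, 10.13 and 10.08 with DMSO, 9.85, 9.88 and 9.92 with 5SGlcNAc, and 9.68, 9.76 and 9.73 with Thiamet-G. The 3 groups lay in 3 separate bands, with DMSO highest and Thiamet-G lowest. With 5SGlcNAc it fell by 0.22 (SE 0.0408, limma adjusted p = 0.00959), 1.16-fold, a call that held in all 14 alternative settings.

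NDUFB1 is an accessory subunit of the membrane arm. Its levels were 13.04, 13.01 and 13 with DMSO, 12.87, 12.83 and 12.89 with 5SGlcNAc, and 12.9, 12.93 and 12.95 with Thiamet-G. Both inhibitor groups lay below DMSO. It fell by 0.15 with 5SGlcNAc (SE 0.038, limma adjusted p = 0.0337), but the call held in 5 of 14 alternatives. Quantile normalization, median centring and leaving out any of the 6 arrays of both groups ended it, with adjusted p up to 0.121, and median centring brought the difference to -0.10.

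NDUFV1, which holds the flavin that takes electrons from NADH, was 11.82, 11.9 and 11.94 with DMSO and 11.66, 11.66 and 11.72 with 5SGlcNAc. Its groups did not overlap and the difference was -0.21, just outside the threshold (limma adjusted p = 0.0522). NDUFV1 was called lower without dim genes, with trend and robust variance and with only the arrays of both groups. The limma adjusted p was then 0.0175, 0.0071 and 0.0329, and the other alternatives gave no call. NDUFS1, an iron-sulphur subunit, differed by -0.07, NDUFA9 by 0.03 and NDUFB8 by 0.01, none of them called. NDUFA8, an accessory subunit on the intermembrane space side, was the complex I subunit with the highest difference (0.14, limma adjusted p = 0.0792).

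In complex II the flavoprotein SDHA and the membrane anchors SDHC and SDHD differed from DMSO by -0.02, -0.01 and -0.12 with 5SGlcNAc. In complex III the range was narrow, from -0.07 for the core protein UQCRC1 to 0.03 for UQCR11, with UQCRC2 at -0.03. In complex IV it ran from -0.11 for COX8A to 0.08 for COX7A1, with COX4I1 at -0.02, COX5A at 0.01, COX5B at -0.05, COX6C at -0.01, COX6A2 at 0.08 and COX7A2L, a factor of supercomplex formation, at 0.03. The 95% intervals bound these differences: 51 of the 56 genes (91.1%) had an interval wholly within 0.3 of 0 on either side. The share was 68.7% over all genes and 78.2% over the 7179 genes above the 40th percentile.

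**Figure D1:**
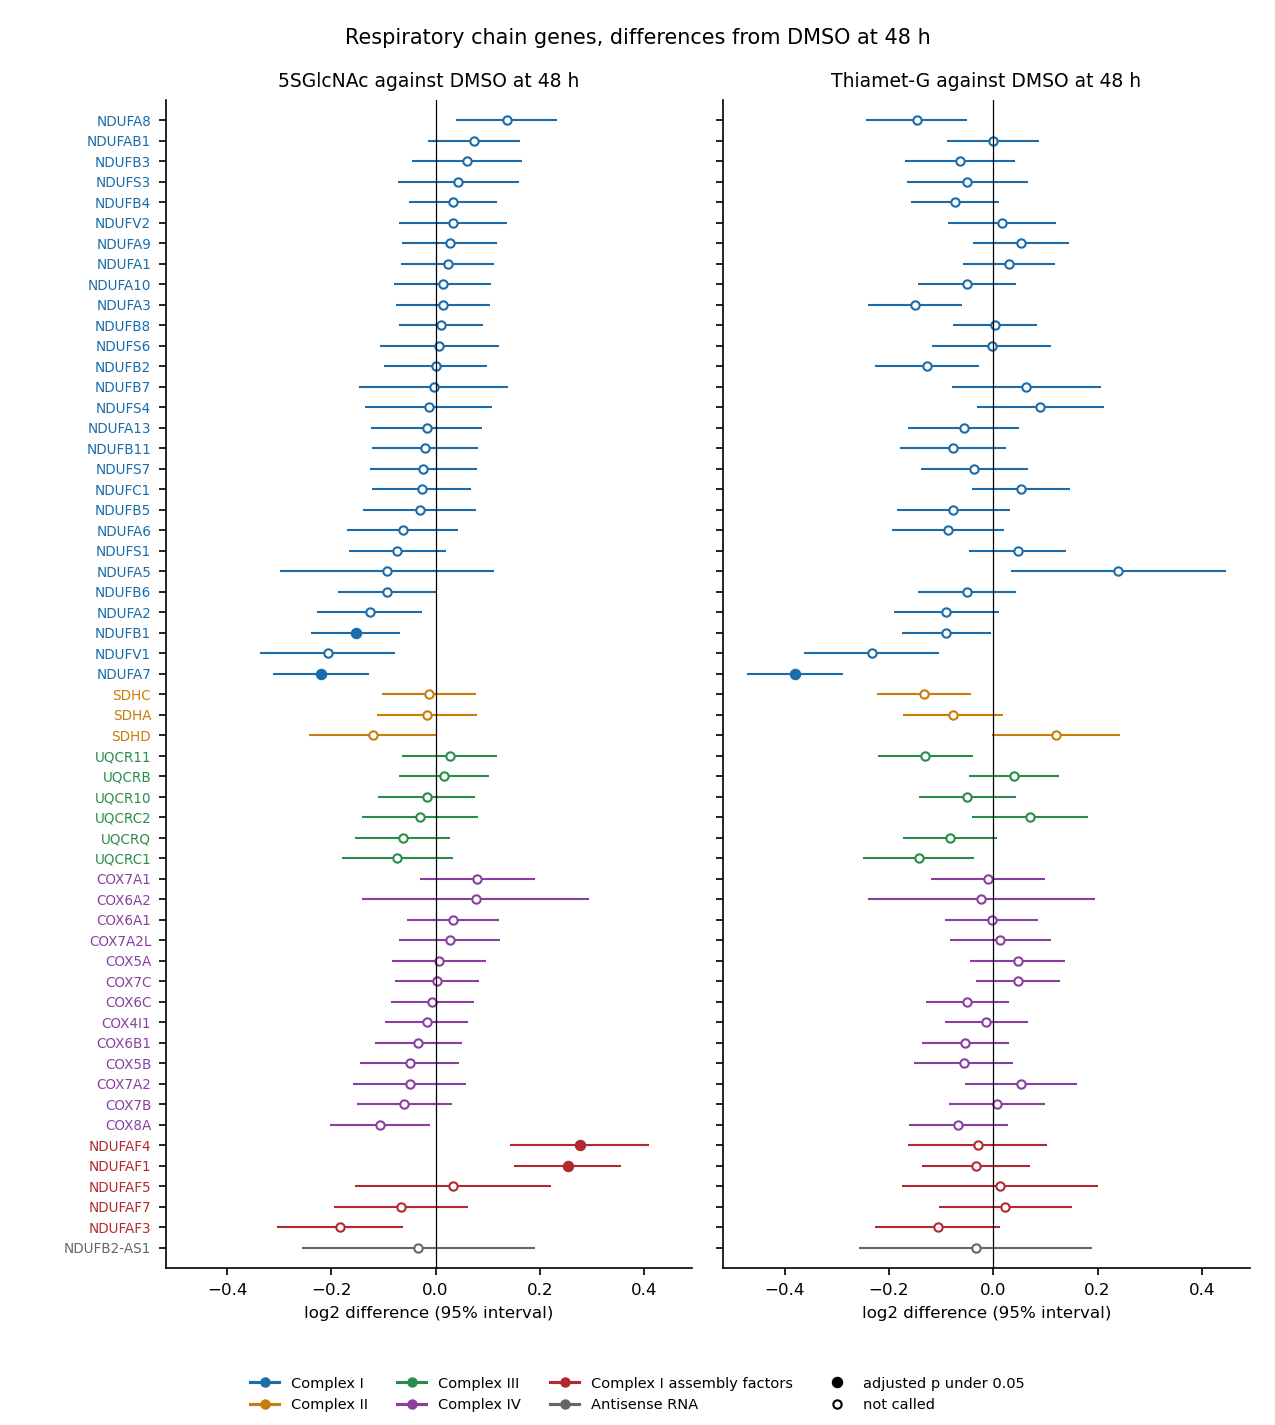
Log2 differences from DMSO at 48 h with 95% intervals for the 56 genes, grouped by complex and ordered by the 5SGlcNAc difference, with 5SGlcNAc on the left and Thiamet-G on the right (3 arrays per treatment); filled circles are genes called at adjusted p under 0.05. The filled circles are NDUFA7, NDUFB1, NDUFAF1 and NDUFAF4 on the left and NDUFA7 on the right, and apart from NDUFV1 and NDUFA5 all other points lie within 0.2 of 0.

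Thiamet-G against DMSO at 48 h asks the same of more O-GlcNAc, and it shares the DMSO arrays with the comparison above, so the 2 are not independent. With Thiamet-G, NDUFA7 fell by 0.38 (SE 0.0408, limma adjusted p = 0.00419), 1.3-fold, from the levels given above, and the call held in all 14 alternatives. It was the sole member called. Lower calls made up 1.79% of the members and 3.01% of all genes, and higher calls 0 of 56 members and 0.476% of all genes. The median change was -0.035, beside -0.01 over all genes.

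Other members were below DMSO with Thiamet-G by smaller amounts that did not pass the test. NDUFV1 was 11.56, 11.76 and 11.64, against 11.82, 11.9 and 11.94 with DMSO, a difference of -0.23 (limma adjusted p = 0.0639). It was called without dim genes, with trend and robust variance and without Thiamet-G replicate 2. The limma adjusted p was then 0.0183, 0.00718 and 0.0236, and the other alternatives gave no call. NDUFA3, a small membrane-arm subunit, was 11.73, 11.68 and 11.76 against 11.89, 11.84 and 11.89, a difference of -0.15 (limma adjusted p = 0.0793). Neither gene's groups overlapped. NDUFA8 (-0.15), UQCRC1 (-0.14), SDHC (-0.13), UQCR11 (-0.13) and NDUFB2 (-0.13) also had every Thiamet-G array below every DMSO array, with limma adjusted p of 0.107 to 0.158. With a trend and robust variance, 8 of 56 members (14.3%) were called lower and 0 higher, where 6.05% of all genes were lower and 1.68% higher. With dim genes left out, 6 of 51 members (11.8%) were lower and 0 higher, where 11% and 2.23% of the genes tested were.

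Above DMSO, the highest difference with Thiamet-G was that of NDUFA5, an accessory subunit of the matrix arm, at 0.24 (SE 0.0914, limma adjusted p = 0.191). Its levels were 10.8, 10.79 and 10.79 with DMSO and 11.26, 10.82 and 11.02 with Thiamet-G, so the range within Thiamet-G was wider than the difference. The difference was 0.13 without Thiamet-G replicate 1, and 0.35 and called without replicate 2 (limma adjusted p = 0.0294). SDHD differed by 0.12, UQCRC2 by 0.07 and COX7A2 by 0.05, and NDUFS1 (0.05), NDUFA9 (0.05), NDUFB8 (0.00) and COX5A (0.05) were near 0. In the same comparison SDHA was at -0.08, COX5B at -0.06, COX6C at -0.05, COX4I1 at -0.01, COX7A1 at -0.01, COX7A2L at 0.01, COX6A2 at -0.02, COX8A at -0.07, NDUFAF3 at -0.11 and NDUFAF7 at 0.02. Intervals lay wholly within 0.3 of 0 for 53 of the 56 genes (94.6%), against 74.5% of all genes and 83.3% of those above the 40th percentile.

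Groups without overlap give a second view. With 5SGlcNAc, 13 members (23.2%, against 18.5% of all genes) had all arrays below DMSO and 4 (7.14%, against 12.7%) above it. With Thiamet-G, 15 members (26.8%, against 15.1% of all genes) lay below and 3 (5.36%, against 6.37%) above. These splits move with the scaling of the arrays, for all genes as for the members. After quantile normalization 10 members (17.9%, against 16.8% of all genes) lay below DMSO and 7 (12.5%, against 18.5%) above it with 5SGlcNAc. With Thiamet-G 16 (28.6%, against 12.2%) then lay below and 6 (10.7%, against 11.5%) above. After median centring, which moves every gene of an array by 1 amount, 4 members (7.14%, against 10.7%) lay below and 20 (35.7%, against 29.6%) above with 5SGlcNAc. With Thiamet-G 8 (14.3%, against 8.64%) then lay below and 14 (25%, against 18.1%) above. The median of all genes moved from 0.01 to 0.07 and from -0.01 to 0.04 under that centring. The median of the members moved from -0.015 to 0.04 and from -0.035 to 0.015.

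The inhibitors act on opposing enzymes, so they were also set directly against each other at 48 h. NDUFAF4, NDUFAF1, NDUFA8, NDUFA3, NDUFA7 and UQCR11 were higher with 5SGlcNAc than with Thiamet-G, and NDUFA5 and SDHD were lower. Higher calls made up 10.7% of the members and 6.87% of all genes, and lower calls 3.57% and 6.79%. After median centring 6 members were higher and 1 lower, NDUFA5 being lost, against 7% and 6.13% of all genes. The median difference of the members was 0.02, the same as over all genes at 2 decimals.

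The differences for the assembly factors were 0.31 for NDUFAF4 (SE 0.0592, limma adjusted p = 0.00941) and 0.29 for NDUFAF1 (SE 0.0458, limma adjusted p = 0.00387). NDUFA8 was 11.45, 11.36 and 11.46 with 5SGlcNAc and 11.12, 11.13 and 11.17 with Thiamet-G, with DMSO between them at 11.25, 11.31 and 11.3. The 3 groups did not overlap, and the difference between the inhibitors was 0.28 (SE 0.0429, limma adjusted p = 0.00294). These 3 calls held in all 14 alternatives.

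NDUFA7, lower than DMSO with both inhibitors, was 0.16 higher with 5SGlcNAc than with Thiamet-G (limma adjusted p = 0.0312). NDUFA3 was 11.86, 11.89 and 11.91 with 5SGlcNAc, level with DMSO and above Thiamet-G by 0.16 (limma adjusted p = 0.0268). UQCR11, a small subunit of complex III, was 12, 11.94 and 11.96 with 5SGlcNAc, 11.76, 11.81 and 11.86 with Thiamet-G and 11.94 in each DMSO array. Its difference was 0.16 (limma adjusted p = 0.0334). Each of these 3 calls held in 7 of 14 alternatives, and was lost, among others, with any 5SGlcNAc array left out, Thiamet-G replicate 1 left out or only the arrays of both groups in the fit, with adjusted p up to 0.118.

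SDHD anchors succinate dehydrogenase in the membrane. Its levels were 11.88, 11.77 and 11.85 with 5SGlcNAc, 12.1, 11.98 and 12.14 with Thiamet-G and 11.94, 12.01 and 11.91 with DMSO. The 5SGlcNAc arrays lay below all others. The Thiamet-G group had a higher mean than DMSO but overlapped it, with 11.98 in Thiamet-G replicate 2 and 12.01 in DMSO replicate 2. The difference was -0.24 (SE 0.0547, limma adjusted p = 0.0197) and was lost without 5SGlcNAc replicate 2 or 3 or Thiamet-G replicate 1 or 3. A second, dim SDHD probe set, with a mean of 4.63, differed by 0.10, and the mean of both probe sets gave -0.07 (adjusted p = 0.491).

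NDUFA5 was 10.74, 10.7 and 10.66 with 5SGlcNAc, below every DMSO and Thiamet-G array. Against Thiamet-G it differed by -0.33 (SE 0.0914, limma adjusted p = 0.0415). Thiamet-G replicate 1, at 11.26, was the highest array, and without it the difference was -0.22 (limma adjusted p = 0.0692). The call held in 6 of 14 alternatives, and was lost also without Thiamet-G replicate 3, without any 5SGlcNAc array, after median centring and with only the arrays of both groups in the fit. A dim second probe set at 4.14 differed by -0.06, and the mean of both gave -0.20 (limma adjusted p = 0.107). The complex II partner SDHC was on the other side, at 0.12 (limma adjusted p = 0.0829), and NDUFS1 at -0.12 (limma adjusted p = 0.0887).

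Members without a call were as follows. UQCRC1 was at 0.07, UQCRC2 at -0.10, SDHA at 0.06, NDUFV1 at 0.03, NDUFA9 at -0.03 and NDUFB8 at 0.01. In complex IV, COX6A2 was highest at 0.10 and COX7A2 lowest at -0.10, with COX7A1 at 0.09, COX6C at 0.04, COX7A2L at 0.01, COX5B at 0.01, COX4I1 at 0.00, COX5A at -0.04 and the assembly factor NDUFAF7 at -0.09. Groups did not overlap for 13 members higher with 5SGlcNAc (23.2%, against 16.1% of all genes) and 8 lower (14.3%, against 13.2%). Intervals lay within 0.3 of 0 for 50 members (89.3%), against 68% of all genes and 74.2% of those above the 40th percentile.

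**Figure D2:**
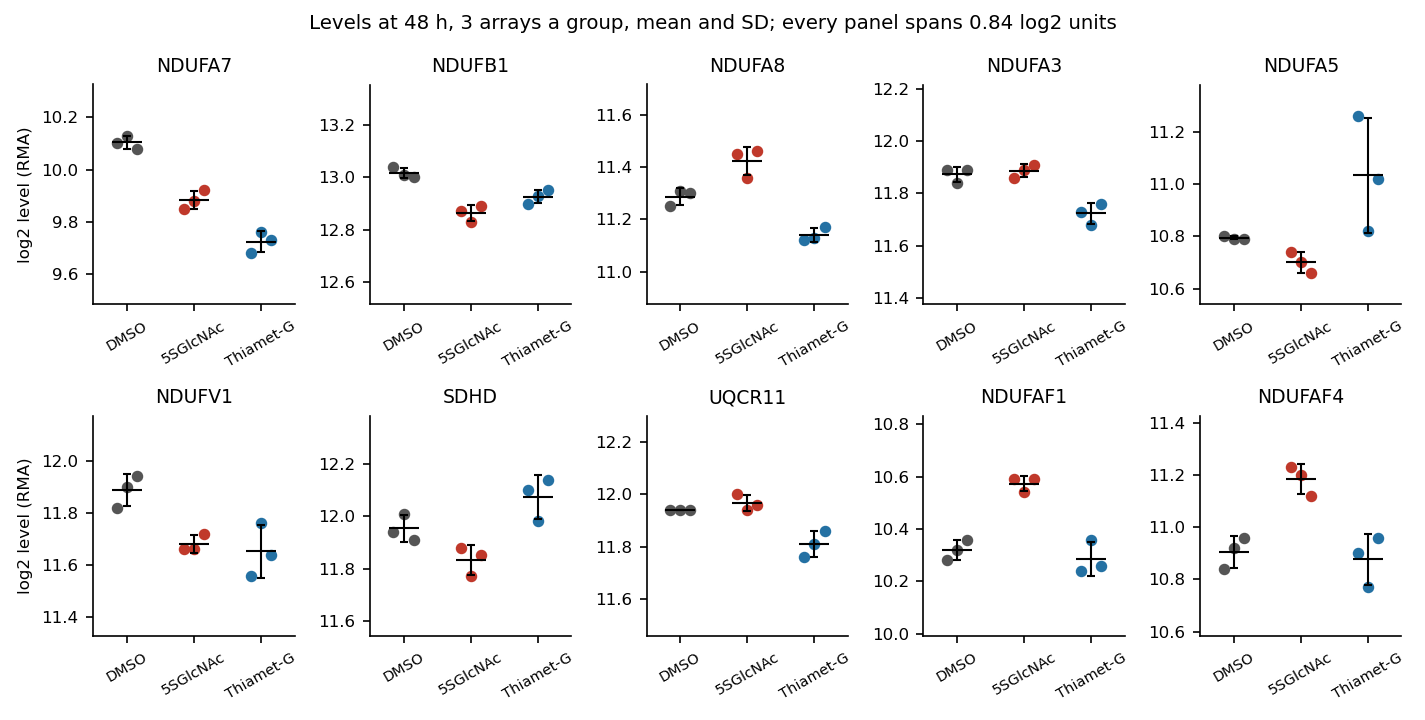
Log2 levels of 10 genes in each 48 h array by treatment, with the mean and SD of 3 arrays; every panel spans 0.84 log2 units. NDUFA7 falls in separate bands from DMSO to Thiamet-G, and NDUFAF1 and NDUFAF4 are raised in the 5SGlcNAc arrays. NDUFA8 has DMSO between the inhibitors without overlap. SDHD has the DMSO mean between them, with Thiamet-G overlapping DMSO, and 1 Thiamet-G array of NDUFA5 stands at 11.26.

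Compared by complex, the mean of complex IV varied least at 48 h. Complexes I, II, III and IV hold 28, 3, 6 and 13 genes, and a mean over fewer genes scatters more, which was not allowed for. The mean deviation of the 13 complex IV genes from DMSO stayed between -0.0167 and 0.0064 in all 9 arrays of 48 h. It ran from -0.0552 to 0.0123 for complex I, -0.0789 to 0.0111 for complex II, -0.0794 to 0.0056 for complex III and -0.0507 to 0.0873 for the assembly factors, beside -0.0223 to 0.0103 over all genes. Median differences with 5SGlcNAc were -0.01 for complex I, -0.02 for II, -0.02 for III, -0.01 for IV and 0.03 for the assembly factors (-0.025 after quantile normalization). With Thiamet-G they were -0.05, -0.08, -0.07, -0.01 and -0.03 in that order, and after median centring 0.00, -0.03, -0.02, 0.04 and 0.02. The order with complexes II and III below complex IV was kept there and after quantile normalization (-0.09, -0.08 and -0.02), and the difference between complexes was not tested. Subunits of 1 complex lay on different sides, without a call against DMSO for NDUFA8, SDHC or SDHD: within complex I, NDUFA8 and NDUFA7 were on opposite sides of DMSO with 5SGlcNAc, and within complex II, SDHC and SDHD were on opposite sides with Thiamet-G.

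**Figure D3:**
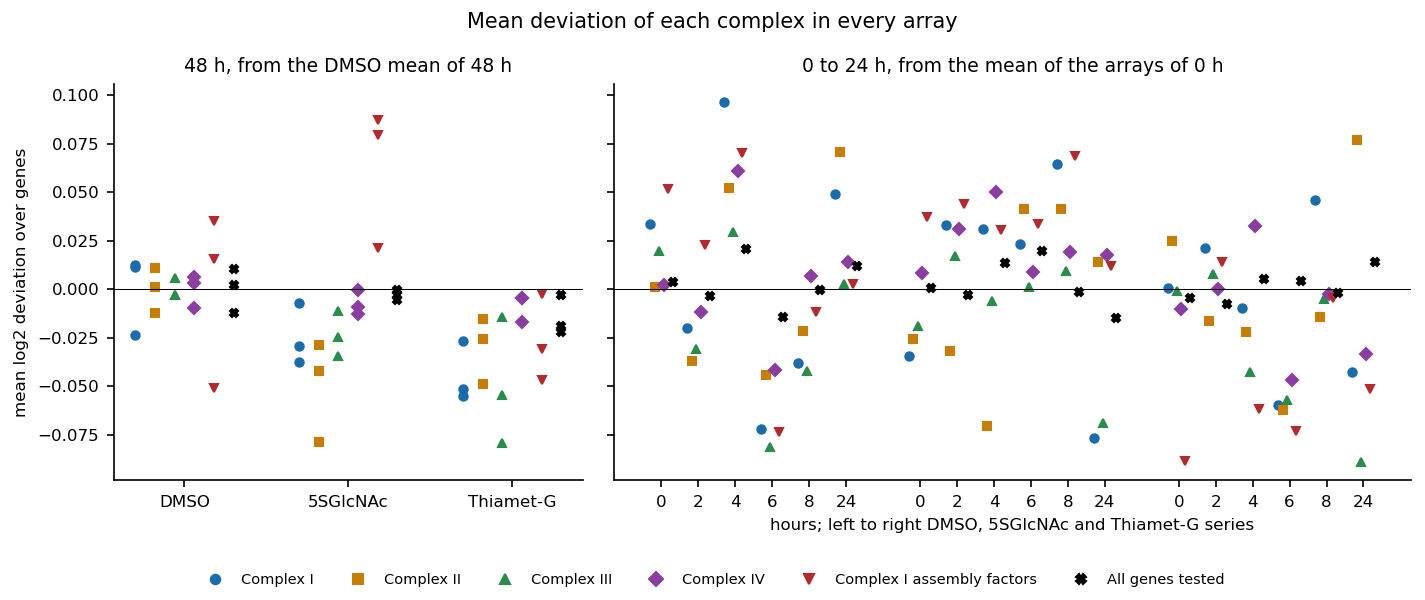
Mean log2 deviation over the genes of each complex in every array, from the DMSO mean at 48 h (left, 3 arrays per treatment) and from the mean of the 0 h arrays (right, 1 array per treatment and time), beside all genes tested. Complex IV stays between -0.0167 and 0.0064 at 48 h, and 2 of the 5SGlcNAc arrays carry the highest values of the assembly factors, up to 0.0873.

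Of the 13 members with over 1 probe set, 21 other probe sets were available, 4 of them dim. Where the other probe set was not dim, its difference with 5SGlcNAc was a median of 0.047 away from that of the brightest one, and at most 0.18. NDUFB8 gave 0.01 on its brightest probe set and 0.04 and 0.12 on the others, and the 4 probe sets of SDHC gave -0.13, -0.15, 0.01 and -0.03 with Thiamet-G.

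Other mitochondrial lists were measured in the same comparisons at 48 h. Their counts stand beside the all-gene shares of 2.92% higher and 7.32% lower with 5SGlcNAc, 0.476% and 3.01% with Thiamet-G, and 6.87% and 6.79% between the inhibitors. Of 17 ATP synthase genes, 2 fell with 5SGlcNAc against DMSO, ATP5F1D (-0.23) and ATP5IF1 (-0.21), the inhibitor of the synthase, and 1 fell with Thiamet-G, ATP5PD (-0.17). Against Thiamet-G, 2 were higher with 5SGlcNAc (ATP5MC2 at 0.19 and ATP5PD at 0.17) and 1 lower (ATP5F1D at -0.17). Of 17 genes of electron carriers and coenzyme Q synthesis, COQ2 (-0.38) and COQ4 (-0.24) fell with 5SGlcNAc, and ETFB (-0.41), a subunit of the electron transfer flavoprotein, fell with Thiamet-G. Between inhibitors 4 were higher with 5SGlcNAc (ETFB 0.33, COQ9 0.27, ETFDH 0.27, COQ8A 0.21) and 1 lower (COQ4 -0.20).

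Among 18 other assembly factors of the chain, BCS1L, which inserts the Rieske protein into complex III, rose by 0.23 with 5SGlcNAc (limma adjusted p = 0.0127), as did NDUFAF1 and NDUFAF4 above. SCO2 (-0.28) and SURF1 (-0.25), which help build complex IV, fell with Thiamet-G. Between inhibitors 4 of 18 (22.2%) were higher with 5SGlcNAc, led by SCO2 (0.34), BCS1L (0.30) and UQCC1 (0.20), and 0 lower. The list's median difference there was 0.11, against 0.02 over all genes.

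Of 16 regulators of mitochondrial biogenesis, TWNK, the mitochondrial helicase, rose by 0.21 with 5SGlcNAc and 0 passed with Thiamet-G. Between inhibitors POLRMT (0.37), TWNK (0.32) and PPRC1 (0.19) were higher with 5SGlcNAc and 0 lower. Of 51 mitochondrial ribosome genes, MRPS30 rose with 5SGlcNAc (0.17), and 4 fell with Thiamet-G, led by MRPL34 (-0.28), MRPL24 (-0.26) and MRPS33 (-0.22). Between inhibitors 8 (15.7%) were higher with 5SGlcNAc and 1 (1.96%) lower. In the citric acid cycle, PC fell with 5SGlcNAc (-0.28), 0 of 16 genes passed with Thiamet-G, and IDH3B was higher with 5SGlcNAc than with Thiamet-G (0.18). Of 9 genes of mitophagy and mitochondrial stress, PINK1 fell with Thiamet-G (-0.27), and was 0.27 higher with 5SGlcNAc than with Thiamet-G.

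Of the cell type markers, 2 of 9 luminal genes fell with 5SGlcNAc at 48 h, KRT19 by 0.42 and CDH1 by 0.29. The mean level of the 9 was 9.11 to 9.18 in DMSO arrays, 8.98 to 9.03 with 5SGlcNAc and 9.15 to 9.18 with Thiamet-G, and ESR1, FOXA1, CDH1 and ERBB3 were dim. The fibroblast gene LUM also fell with 5SGlcNAc (-0.49), as 1 of 4 in its list, and 0 genes of the mesenchymal, haematopoietic and muscle lists passed there; 0 of the 5 marker lists had a call with Thiamet-G against DMSO. Between the inhibitors 3 of 9 luminal genes were lower with 5SGlcNAc, KRT19 (-0.46), CDH1 (-0.34) and EPCAM (-0.28). So were 1 gene each of the fibroblast (LUM, -0.95), haematopoietic (LYZ, -0.39) and mesenchymal (CAV1, -0.25) lists, and 0 muscle genes passed. The part of these markers in the member differences was not tested. The arrays hold bulk RNA, in which fewer cells that express a transcript and less of it per cell cannot be told apart.

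Over 2 to 24 h, with 1 array per treatment and time, each inhibitor's effect averaged over the 5 times was tested, with time as a block. The 5 times stood in for replicates, so p-values and intervals reflect how single arrays scattered over the times. No member was called. The 56 genes had 0 calls for 5SGlcNAc against DMSO, where 0% of all genes were called, 0 for Thiamet-G against DMSO (0% of all genes) and 0 between the inhibitors (0.259%). At an unadjusted limma p under 0.05 there were 0, 2 and 3 members, beside 524, 1112 and 1581 of all genes. The medians were 0.01, -0.02 and 0.02, and 55 of the 56 genes (98.2%) had an interval within 0.3 of 0 in each of the 3 comparisons, against 90.7%, 87.9% and 85.5% of all genes.

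The members nearest to a call were those of the direct comparison. NDUFA8 was 0.17 higher with 5SGlcNAc than with Thiamet-G (limma adjusted p = 0.256), above it at 4 of 5 times, and NDUFAF1 0.13 higher (limma adjusted p = 0.282), at 5 of 5 times. NDUFAF1 was 10.02, 9.93, 9.93, 9.87 and 9.80 with 5SGlcNAc at 2, 4, 6, 8 and 24 h, and 9.91, 9.79, 9.78, 9.63 and 9.80 with Thiamet-G; the gap at 24 h was thus close to 0. COX6A2, dim in both time sets, was 0.22 higher (limma adjusted p = 0.358), at 3 of 5 times.

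Each time was also tested against 0 h, blocking on the 3 series, which asks what changed in culture whatever the treatment. The 3 series, which differ in treatment, stood in for replicates of a time. NDUFA7 fell by 24 h, and no other member was called at any time. At 2 h, 0 of 56 members and 0.51% of all genes were called, at 4 h 0 and 3.28%, at 6 h 0 and 4.49%, and at 8 h 0 and 6.36%. At an unadjusted limma p under 0.05 these times had 0, 0, 2 and 4 members (0%, 0%, 3.57% and 7.14%), against 7.29%, 16.6%, 17.7% and 22.9% of all genes. At 24 h 1 member (1.79%) was called, where 9.97% of all genes were.

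NDUFA7 was 10.34, 10.15 and 10.31 at 0 h in the DMSO, 5SGlcNAc and Thiamet-G series, and 10.07, 9.91 and 9.85 at 24 h. It was lower at 24 h in 3 of 3 series, DMSO included, and fell by 0.33 in the mean (SE 0.0817, limma adjusted p = 0.0198). From 2 to 8 h the values lay between 10.10 and 10.40. Leaving out any 1 of the 3 series ended the call, with adjusted p up to 0.248.

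The 4 members closest to it at 24 h were also lower in 3 of 3 series without passing. NDUFAF3 differed by -0.21 (limma adjusted p = 0.0995), UQCR11 by -0.18 (0.104), UQCRC1 by -0.15 (0.112) and NDUFV1 by -0.17 (0.137). NDUFAF3 went from 9.74, 9.63 and 9.58 to 9.55, 9.41 and 9.37, and after quantile normalization it and UQCR11 passed. In complex II, SDHA was at 0.08 (above 0 h in 3 of 3 series), SDHD at 0.06 (2 of 3) and SDHC at 0.03 (1 of 3, the DMSO series), none of them called, and the complex medians were -0.02 for I, 0.06 for II, -0.02 for III and -0.01 for IV. Luminal markers were lower than at 0 h also earlier, 2 of 9 at 2, 4 and 6 h each and 4 of 9 at 8 h, among them CDH1 (-0.59) and KRT19 (-0.59) at 6 h, and MB was lower at 8 h (-0.46). At 24 h, 4 of 9 luminal markers (CDH1, ERBB3, KRT8, GATA3) were lower and EPCAM higher than at 0 h, 1 of 4 fibroblast markers (LUM) and 1 of 4 muscle markers (MB) lower, and their part in the member values was not tested.

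At 6 h, 13 of 56 genes lay above their 0 h level and the median was -0.03, against 0.00 over all genes. It was -0.02 after median centring and -0.04 after quantile normalization, and -0.01 without the DMSO series and -0.06 without the 5SGlcNAc series. NDUFAF3 was lowest at -0.18 and NDUFAF7 highest at 0.24. At 8 h NDUFAF7 was at 0.29, NDUFA5 at 0.25 and NDUFV2, the small iron-sulphur partner of NDUFV1, at 0.15, each above 0 h in 3 of 3 series, with limma adjusted p of 0.109, 0.115 and 0.172. NDUFA5 was highest in the Thiamet-G array of 8 h, at 10.88, and lowest in the DMSO array of 4 h, at 10.23. The ACTB signal of that DMSO array stood apart, as given above, and its part in the value was not tested.

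**Figure D4:**
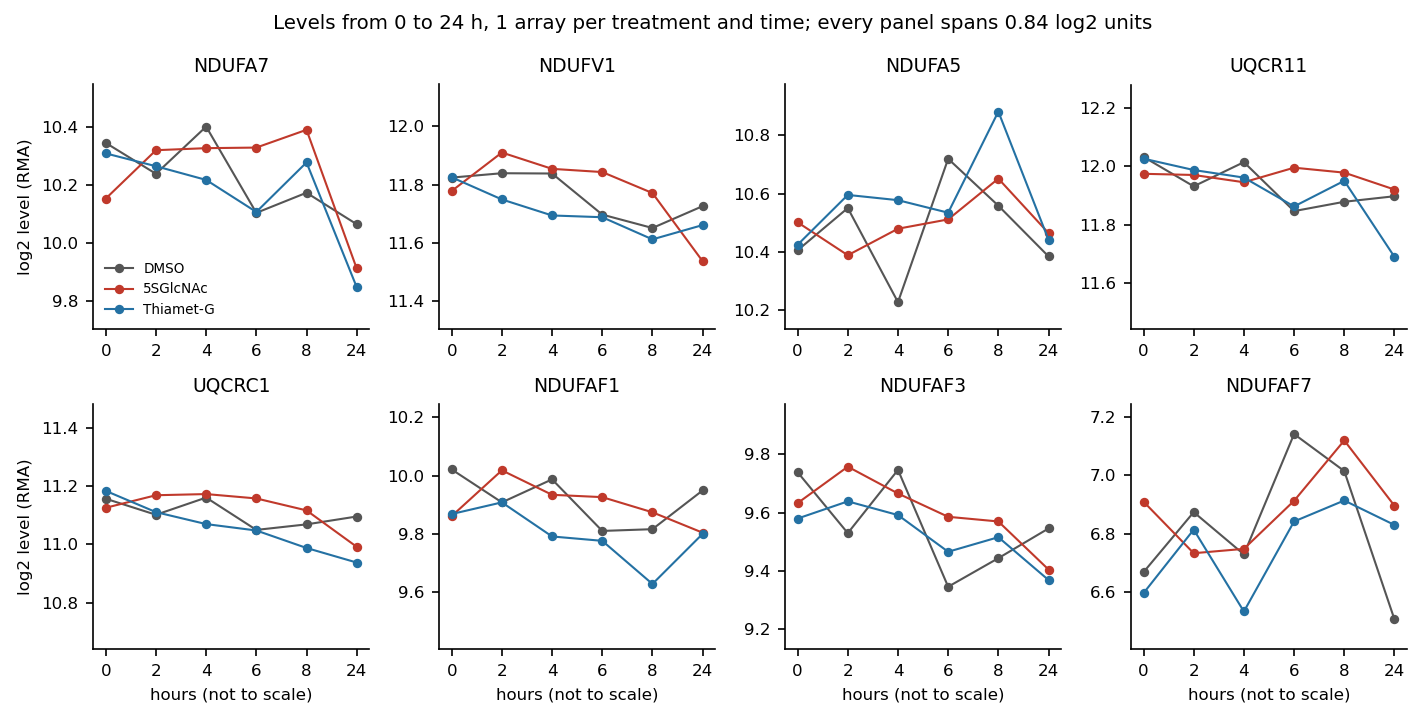
Log2 levels of 8 genes from 0 to 24 h in the DMSO, 5SGlcNAc and Thiamet-G series, 1 array per point with no error; the time axis is not to scale and every panel spans 0.84 log2 units. NDUFA7 drops at 24 h in all 3 series, to 10.07, 9.91 and 9.85. NDUFA5 spreads from 10.23 to 10.88 and lies above its 0 h level in all 3 series at 6 h and 8 h, without a call in the main fit.

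Across the 18 arrays of 0 to 24 h, the gap between a gene's highest and lowest array was a median of 0.292 over the 56 genes, 0.467 over all genes and 0.41 over the genes above the 40th percentile. It was smallest for COX6C, a small subunit of complex IV, at 0.0816 (from 13.10 to 13.18), and largest for NDUFA5, at 0.655. The mean deviation of complex IV stayed between -0.047 and 0.0608, that of complex I between -0.0765 and 0.0964, of complex II between -0.0703 and 0.0767 and of complex III between -0.089 and 0.0294.

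Among the other lists at 24 h, ETFDH (0.49), SUCLA2 (0.49), SIRT1 (0.46) and PINK1 (0.25) were higher than at 0 h, and the biogenesis factor ESRRA (-0.29), SURF1 (-0.29) and 3 of 51 mitochondrial ribosome genes (MRPL2 at -0.29, MRPS16 at -0.27, MRPS33 at -0.25) lower. None of the 17 ATP synthase genes was called at any time against 0 h, nor was any gene of these mitochondrial lists called over 2 to 24 h.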

How the data were processed

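The authors deposited 1 log2 value for each probe set and array. Per the submitters' processing notes they used RMA, whose version is not given in the sources used here. RMA equalises arrays processed together, so it can hide a change of most genes in 1 direction. Here, of 22277 probe sets, 62 were controls, 1043 named several genes and 2108 none; 19052 of the 19064 naming 1 gene matched RefSeq by Entrez identifier. The brightest probe set stood for each gene.

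In R 4.3.3, limma 3.58.1 (lmFit, then eBayes) was run on all 11963 genes, and two-sided p-values were adjusted by Benjamini-Hochberg. At 48 h all 9 arrays shared 1 spread, over 2 to 24 h (15 arrays) time was a block, and against 0 h (18 arrays) the treatment series. The number of arrays limits the precision. Scripts were tested on simulated data. The dim filter lies at the 40th percentile.

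Genes named were all called members, the extremes of each complex at 48 h, and a fixed list of subunits and alternative isoforms. Of the other lists, at most 3 genes called per contrast were named, except where a list's calls are given in full. Some members without a call were named beyond this rule, for the size or direction of their differences. Lists covered the complexes, ATP synthase, carriers and coenzyme Q, chain assembly, biogenesis, citric acid cycle, mitochondrial ribosome, mitophagy and stress, and markers of mesenchymal, luminal, haematopoietic, muscle and fibroblast cells. Members and lists were chosen with earlier results of these data known.

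Alternatives were quantile normalization, median centring, a dim filter, the mean of probe sets, no probe sets ending in _x_at, trend and robust variance, a replicate block, only the arrays compared, other sets of times, and leaving out arrays, times or series.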

Additional observations from a re-analysis of the deposited data

Results flagged for a closer look

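NDUFB1 differed between the time sets. Its difference of 5SGlcNAc from DMSO was -0.15 at 48 h and 0.06 over 2 to 24 h, and the gap between them was -0.217 (SE 0.0521, limma adjusted p = 0.0412 for the interaction over all genes). This test was chosen with earlier results known, and its 48 h term is the call that was lost under 9 of 14 alternatives. It sets the arrays of 48 h against those of 2 to 24 h. Exposure time, array set, array medians and the ACTB signal differ together between these, so their parts cannot be told apart. Limma called 213 of all genes in it for 5SGlcNAc and 0 for Thiamet-G, with 6 and 2 members (10.7% and 3.57%) at an unadjusted p under 0.05, against 13.2% and 6.48% of all genes. NDUFA7 had gaps of -0.28 (adjusted p = 0.0902) and -0.33 (adjusted p = 0.365) and was not called.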

How the results depend on the processing

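No result changed direction with a call. For 5SGlcNAc against DMSO at 48 h the 4 calls became 8 without dim genes (15.7% of the members tested, against 24.1% of genes), 9 with trend and robust variance (16.1%, against 15%), and 2 to 3 with each array left out (5.65% to 8.23% of genes). For Thiamet-G against DMSO the 1 call became 6 (11.8%, against 13.2% of genes), 8 (14.3%, against 7.73%) and 1 to 3 (0.844% to 5.71% of genes) under the same settings. For 5SGlcNAc against Thiamet-G the 8 calls became 13 with trend and robust variance (23.2%, against 18.8% of genes), 4 with only the arrays compared (7.14%, against 8.94%) and 3 to 7 with each array left out (7.72% to 16.2% of genes). With a replicate block the 8 became 5 (8.93%, against 9.71% of genes). The 4 became 3 (5.36%, against 7.48%) and the 1 call was kept (1.79%, against 1.55%). Deviations from the group mean correlated at -0.332 to 0.172 between same-numbered arrays, over 0.1 in 2 of 9 pairs. Such deviations add up to 0 over the 3 arrays of a group, so these correlations cannot decide whether the numbers pair the samples. At 8 h against 0 h, 0 calls became 1 with the mean of probe sets (NDUFB8) and 1 with trend and robust variance (NDUFA5), where 6.24% and 9.9% of genes were called. At 24 h, 1 call became 3 after quantile normalization, 3 without dim genes, 2 with trend and robust variance and 0 with each series left out, where 11.6%, 21%, 12.6% and 2.22% to 3.56% of genes were called. The remaining settings gave 4 or 5 calls in the first of these comparisons (7.14% to 8.93%, against 9.58% to 10.9% of genes). Between the inhibitors they gave from 6 with the mean of probe sets (10.7%, against 13%) to 12 without dim genes (23.5%, against 30.7%). Counts elsewhere were unmoved. Median centring moved the median member change from -0.015 to 0.04 and from -0.035 to 0.015. Of single genes, 922 settings kept their side of the threshold, 50 lost it and 21 gained it. Detection is limited by 3 arrays a group at 48 h and 1 at other times.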
